A study of Mus musculus with 16 samples.

Results

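Mouse embryonic stem (ES) cells that lack the sulfotransferases Ndst1 and Ndst2 (Ndst1/2-/-) were compared with wild-type ES cells of the CCE line. Gene expression was measured on Illumina MouseRef-8 bead arrays. The comparison took the 4 arrays labelled Ndst1/2-/- and the 4 labelled untreated wild type, of 16 arrays in the series, and covered the 9107 genes, by 13377 probes, that passed the filter on detection. Each group held 3 cultures, and culture 3 was hybridised to 2 arrays that were averaged, so each group gave 3 values. Neither group received an inhibitor. All cells, mutant and wild type, grew on gelatin in medium with 15% fetal bovine serum and 1000 IU/ml leukaemia inhibitory factor (LIF). The other groups were wild-type CCE cells kept for 24 h in 20 mM chlorate, a block to sulfation, or in 5 µM SU5402, an inhibitor of FGF receptors. They are used below where they bear on the mutant, and every comparison with untreated cells uses the same 3 wild-type cultures. The labels name the CCE line for wild-type cells only and do not say which line the mutant was made in or how many clones it holds. Genotype and cell line therefore cannot be told apart in any difference given here.

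Heparan sulfate is a sugar chain carried by core proteins of the cell surface and the matrix. The Ndst enzymes replace acetyl groups of the chain with sulfate, and most later sulfation of the chain depends on that step. Fibroblast growth factors (FGFs) bind sulfated chains together with their receptors. In ES cells, Fgf4 acting through ERK kinase moves cells from the naive state of the early embryo towards the primed state of the later epiblast, while LIF holds them in the naive state.

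The loss of Ndst1 and Ndst2 could not be checked on these arrays, since no probe for either gene was analysed here. The related genes Ndst3 and Ndst4 were detected on 0 of 4 arrays in both groups. Both groups carried the ES cell state by its markers. All 8 ES cell markers (Pou5f1, Sox2, Nanog, Zfp42, Sall4, Esrrb, Utf1 and Dppa5a) were detected on 4 of 4 arrays in each group.

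The mutant cultures stood far from every wild-type culture. On the first principal component of the 12 cultures in the series, which held 70.8% of the variance, mutant cultures lay at 48.9 to 49.3 and wild-type cultures, with or without inhibitor, at -20.6 to -14.1. Of the tested probes, 8381 differed from untreated wild type (62.7% of 13377; 4069 higher and 4312 lower; limma with Benjamini-Hochberg adjustment, adjusted p under 0.05). At least 2-fold differences were found for 1205 of them (9.01%; 568 higher and 637 lower). By gene, each represented by its brightest probe, 2776 were higher (30.5%) and 3077 lower (33.8%), with a median log2 difference of -0.004. These shares are the background for every count below. The 3 cultures of each group lay apart for 8963 of the 13377 probes. That is the background wherever groups are said not to overlap. The same fit called 3803 probes for chlorate and 3145 for SU5402. Detection changed outright for some genes: 364 probes were detected on all 4 wild-type and 0 mutant arrays, and 162 the other way round. Levels are given as log2 of background-corrected, normalized intensity, in cultures 1, 2 and 3, and differences as mutant minus untreated wild type ± SE (n = 3 cultures per group). Median differences over probes were 0.0973 to 0.106 between both arrays of culture 3 and 0.0948 to 0.117 (log2) between arrays of different cultures, so the p-values measure a spread that may be largely technical.

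The highest gains were in genes of unrelated function. Slc51a, a subunit of a bile acid and steroid transporter, read 9.88, 9.84 and 9.81 in mutant and 5.72, 6.004 and 5.99 in wild-type cultures (difference 3.94 ± 0.08; limma with Benjamini-Hochberg, adjusted p = 1.82e-12). The mitotic kinase gene Plk1 read 10.96, 10.86 and 10.90 against 7.07, 7.03 and 6.97 (3.88 ± 0.11). Nod1, an intracellular sensor of bacterial cell walls, read 9.30, 9.36 and 9.26 against 5.51, 5.54 and 5.31 (3.85 ± 0.08). In all of these the groups lay far apart, and groups that did not overlap were a condition for being named here. The LIM-domain gene Csrp1 (3.56 ± 0.13), the oligodendrocyte factor Olig1 (3.55 ± 0.12), the brain glycogen phosphorylase gene Pygb (3.17 ± 0.09) and Sfrp1, a secreted Wnt antagonist (3.14 ± 0.09), followed. The helix-loop-helix gene Msc (3.06 ± 0.06), the sodium pump regulator Fxyd6 (3.01 ± 0.06), the heme-binding protein gene Hebp1 (3.00 ± 0.11) and the chemokine gene Ccl25 (3.13 ± 0.09) were also higher. The chemokine gene Ccl27a was detected on 4 of 4 mutant and 0 of 4 wild-type arrays and was at least 5.89-fold higher by 1 probe. Its second probe, with the same detection, gave a smaller fitted log2 difference (1.24 ± 0.09, against 3.09 ± 0.07 for the first). Where a group did not detect a probe, a fold is given as "at least", against the higher of that group's own signal and the lowest detected signal on each array.

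The deepest losses, like the gains, were in genes of varied function. The epithelial splicing factor gene Esrp1 read 6.25, 6.59 and 6.45 in mutant and 9.82, 9.94 and 9.92 in wild-type cultures (-3.46 ± 0.08). The keratin gene Krt8 read 6.67, 6.50 and 6.67 against 9.79, 9.92 and 9.94 (-3.27 ± 0.07), and the epithelial transcription factor gene Grhl2 5.43, 5.40 and 5.40 against 8.63, 8.45 and 8.64 (-3.16 ± 0.09). The 2 groups were separated in each of them, as the choice of genes required. Skeletal actin Acta1 was detected on 0 of 4 mutant and 4 of 4 wild-type arrays and was at least 9.64-fold lower (limma with Benjamini-Hochberg, adjusted p = 2.03e-11). The same held for the iron exporter gene Slc40a1 (at least 8.12-fold lower) and for the interferon-induced GTPase genes Gbp2b (at least 7.17-fold) and Gbp2 (at least 6.44-fold). The ferritin-like gene Fthl17f (-3.72 ± 0.08), the oocyte gene Nlrp14 (-3.47 ± 0.12), Plac8 (-3.37 ± 0.06) and the imprinted placental gene Phlda2 (-3.15 ± 0.06) were lower with detection in both groups. Wt1, the Wilms tumour factor, was detected on 1 of 4 mutant arrays (-3.61 ± 0.10) and the carbonic anhydrase gene Car4 on 2 of 4 (-3.18 ± 0.09). At the other end, Gapdh (0.01 ± 0.05), Prdx1 (-0.01 ± 0.06) and the ribosomal protein genes Rps26, Rps20 and Rplp1 (0.00 ± 0.06, 0.00 ± 0.07 and 0.01 ± 0.05) were bright genes nearest to no difference.

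**Figure D1:**
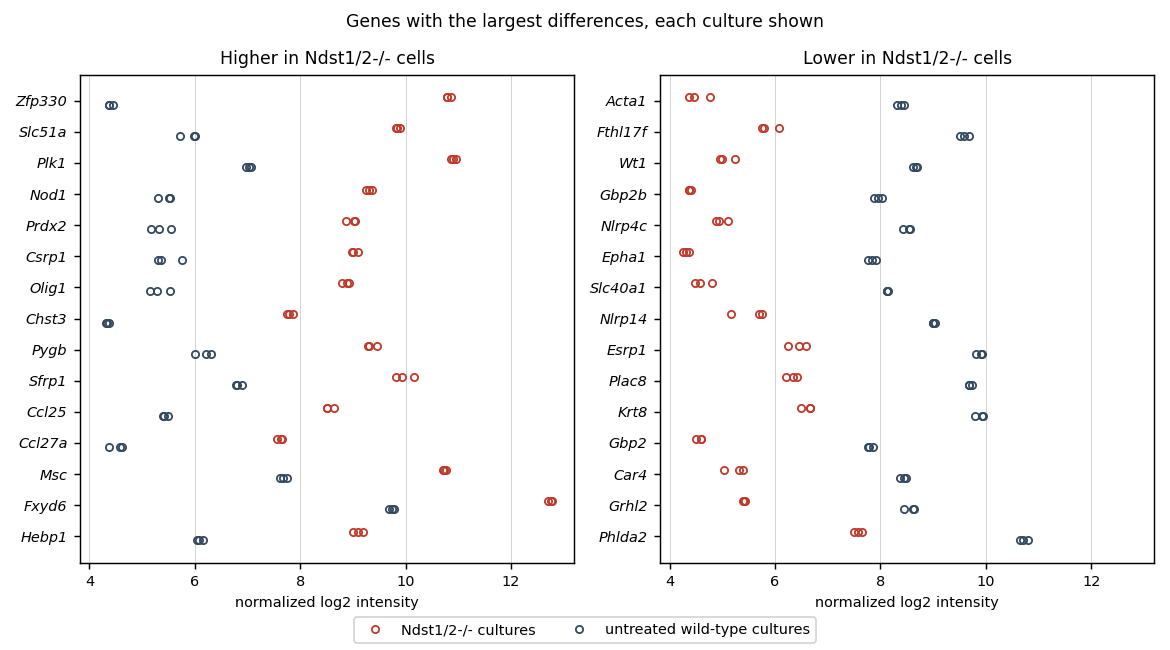
Normalized log2 intensity (x axis) of the 15 genes that rose most and the 15 that fell most, with each culture as an open circle, Ndst1/2-/- in red and untreated wild type in dark blue. The genes were chosen for this difference, and the spread within a group is small beside the gap between groups, as for Krt8 at 6.50 to 6.67 against 9.79 to 9.94.

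Some of the largest differences were seen by 1 probe of a gene and not by another. A probe for Zfp330, a nucleolar zinc-finger protein, had the largest difference on the array. It read 10.85, 10.77 and 10.79 in mutant cultures against 4.37, 4.38 and 4.45 in wild-type cultures, where 0 of 4 arrays detected it (at least 53.9-fold). The other Zfp330 probe was bright in both groups and differed by 0.21 ± 0.06. The 3 probes for the peroxiredoxin gene Prdx2 were all higher, by 3.63 ± 0.12, 2.91 and 1.55. The ephrin receptor gene Epha1, detected on 0 of 4 mutant arrays, was at least 6.61-fold lower by 1 probe and at least 2.78-fold and at least 1.15-fold lower by the other tested probes. The oocyte gene Nlrp4c gave -3.54 by a probe detected on 1 of 4 mutant and 4 of 4 wild-type arrays. Its other tested probe, detected on 0 of 4 mutant and 1 of 4 wild-type arrays, gave -0.65 ± 0.10. Among 2437 genes with 2 or more tested probes, 75 (3.08%) had probes more than 1 log2 unit apart in the mutant comparison. The number was 7 for chlorate and 5 for SU5402. One probe was called higher and another lower for 59 genes. The 2 probes for Dnmt3b, described below, gave -2.01 and -2.01, and the 2 for Dusp6 that both groups detected gave -1.33 and -1.38. Why probes disagree was not tested.

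Differences were not spread evenly over the chromosomes. Of 489 tested genes on chromosome 8, 301 were higher and 65 lower, with a median difference of 0.32, and the 3 mutant cultures gave 0.33, 0.33 and 0.32. Of 803 genes on chromosome 11, 113 were higher and 479 lower, with a median of -0.33. Medians of the other autosomes ran from -0.10 to 0.13. When each chromosome was divided into 8 parts by gene order, all 8 parts of chromosome 8 had medians of 0.22 to 0.43. On chromosome 11 the first part, the 100 genes from Sfi1 to Asb3, had a median of -0.03 and the other 7 parts -0.47 to -0.28. The 144 parts of the other chromosomes ran from -0.35 to 0.26. With chlorate the medians of chromosomes 8 and 11 were -0.01 and 0.01. Of the genes elsewhere, 62.6% of 7815 outside both chromosomes were called, against 64.3% of all genes. Several genes described here lie on chromosome 8 (Zfp330, Prdx2, Sfrp1, Ccl25, Acta1, Dusp4, Fgfr1, Zfp42) or 11 (Etv4, Car4, Axin2, Tex19.1, Meis1, Stat3, Socs3). The part of the chromosome-wide shift in their differences was not tested. Clgn, a testis chaperone gene of chromosome 8, was lower (-2.53 ± 0.07), against the shift of its chromosome. On chromosome 11, the cornea keratin gene Krt12 was at least 4.81-fold lower. The muscle chaperone gene Unc45b was at least 3.32-fold lower by a probe detected on 0 of 4 mutant arrays and differed by -0.96 ± 0.10 on a second probe, detected on 3.

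**Figure D2:**
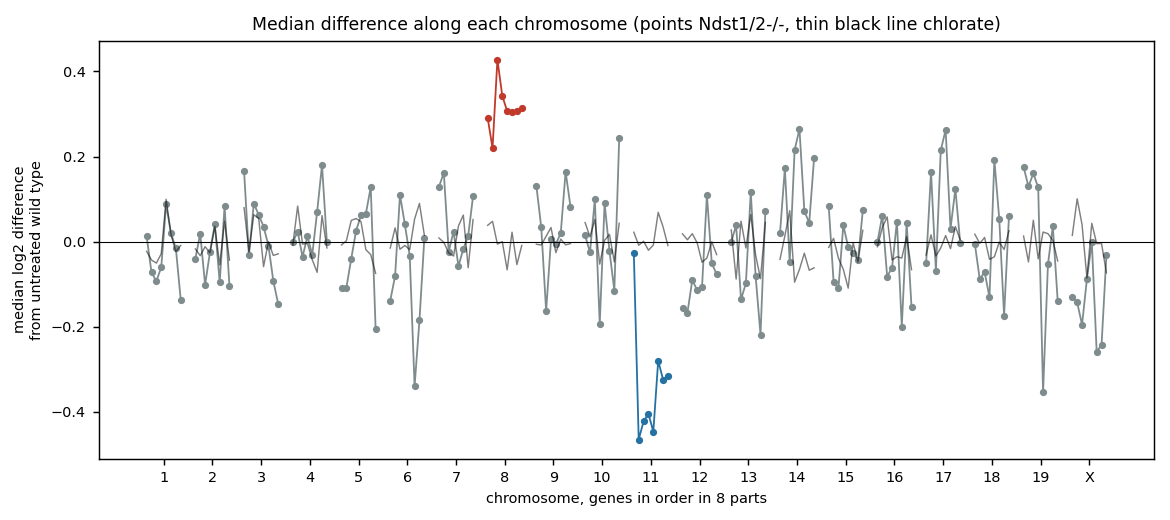
Median log2 difference from untreated wild type (y axis) for successive groups of genes along each chromosome (x axis, 8 parts per chromosome in gene order), with Ndst1/2-/- cells as points and chlorate-treated wild-type cells as a thin black line. Chromosome 8, in red, lies at 0.22 to 0.43 throughout, and chromosome 11, in blue, lies at -0.47 to -0.28 after a first part at -0.03.

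The X chromosome had a median of -0.14 (58 higher and 149 lower of 325 genes). Of 6 tested Y-linked genes 4 were lower and 0 higher. The histone demethylase gene Kdm5d and the zinc-finger gene Zfy1, both Y-linked, were detected on 0 of 4 mutant and 4 of 4 wild-type arrays and were at least 1.79-fold and at least 2.10-fold lower. The Y-linked translation factor gene Eif2s3y remained bright in mutant cultures (9.70, 9.66 and 9.71 against 10.01, 10.05 and 9.92; -0.31 ± 0.06). Xist, which coats an inactive X chromosome, was detected on 0 arrays of either group.

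Of 17 tested genes that report FGF signalling through ERK, as feedback regulators or targets, 9 were lower, 3 higher and 5 not called (median -0.55), beside 33.8% lower and 30.5% higher over all genes. Etv4, an ETS factor induced by ERK, read 7.37, 7.35 and 7.14 in mutant and 9.82, 10.03 and 10.03 in wild-type cultures, 6.37-fold lower (-2.67 ± 0.08; limma with Benjamini-Hochberg, adjusted p = 4.08e-11). Dusp4, a phosphatase that switches ERK off, read 6.71, 6.73 and 6.61 against 8.86, 8.93 and 8.90 (-2.22 ± 0.08), on a chromosome whose median moved up. The Sprouty inhibitor gene Spry4 read 5.94, 5.86 and 5.97 against 7.76, 7.87 and 8.06 (-1.97 ± 0.13). Groups did not overlap for any of the 3 genes. The ERK phosphatase gene Dusp6 (-1.33 ± 0.08), the growth regulator Myc (-1.41 ± 0.09, detected on 1 of 4 mutant arrays), Phlda1 (-1.36 ± 0.10) and the immediate early gene Egr1 (-0.87 ± 0.06) were lower as well. The phosphatase gene Dusp14 (1.01 ± 0.08) and the cyclin gene Ccnd1 (0.54 ± 0.07) were higher. The ETS factor genes Etv5 (0.02 ± 0.07) and Etv1 (0.30 ± 0.15), the feedback inhibitor genes Spry2 (-0.03 ± 0.20) and Spred2 (-0.03 ± 0.09) and the immediate early gene Fos (-0.11 ± 0.09) were not called. Without the 4 members on chromosomes 8 and 11, 7 were lower and 2 higher, with the same median.

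Set directly against wild-type cells under inhibitor, the mutant did not hold all of these genes at the same level. Chlorate had lowered Etv4 further, so that the mutant lay above chlorate-treated cells (0.79 ± 0.08) and slightly below SU5402-treated cells (-0.37 ± 0.08). Dusp6 was likewise above the chlorate level (0.80 ± 0.08), and from the SU5402 level it differed by 0.00 ± 0.08. Egr1 was lower than with chlorate (-0.74 ± 0.06) and with SU5402 (-1.01 ± 0.06). Spry4 differed from its level with chlorate by 0.02 ± 0.13. Of the 17 genes, 8 were higher and 3 lower than with chlorate, and 3 higher and 7 lower than with SU5402. The backgrounds for these direct comparisons are high, at 60.6% of genes called against chlorate and 60.1% against SU5402. Chlorate and SU5402 acted for 24 h on CCE cells, whereas the mutant is a constant state of cells whose line the labels do not give.

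Genes of FGF ligands and receptors moved both ways: of 11 tested, 5 were higher and 4 lower (median 0.21, or 0.00 counting undetected genes at the bound). Fgf4, the main FGF made by ES cells, read 8.39, 8.34 and 8.28 in mutant and 7.47, 7.35 and 7.20 in wild-type cultures (1.00 ± 0.09). Its receptor gene Fgfr1, on chromosome 8, was also higher (0.99 ± 0.12). Fgf17 rose by 1.77 ± 0.06 and by 1.35 ± 0.08 on its second probe. Fgfbp1, which releases FGFs from heparan sulfate, was lower (7.20, 7.26 and 7.21 against 8.71, 8.93 and 8.80; -1.59 ± 0.08). Fgf8 and Fgf5, FGFs of the gastrulating embryo and the primed epiblast, were detected on 4 of 4 wild-type and 0 of 4 mutant arrays, at least 1.51-fold and at least 1.13-fold lower. For Fgf8 the inhibitors gave the opposite sign (1.33 ± 0.09 with chlorate and 1.02 ± 0.09 with SU5402).

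The genes that build heparan sulfate are those nearest to the deleted step. Of 14 tested, 8 were higher, 3 lower and 3 not called (median 0.34). Hs6st1, which adds sulfate to carbon 6 of the glucosamine units, read 9.22, 9.38 and 9.37 in mutant and 7.84, 7.97 and 7.88 in wild-type cultures, 2.69-fold higher (1.43 ± 0.07; limma with Benjamini-Hochberg, adjusted p = 2.22e-09). Hs6st1 was higher with the inhibitors too (1.19 ± 0.07 with chlorate and 1.05 ± 0.07 with SU5402). The polymerase gene Ext2 read 8.61, 8.61 and 8.72 against 7.90, 7.98 and 7.92 (0.71 ± 0.06), whereas its partner Ext1 overlapped between groups (8.74, 8.94 and 8.85 against 8.93, 8.78 and 8.84; -0.01 ± 0.07). Hs2st1, which sulfates the uronic acid units, overlapped as well (-0.04 ± 0.06), and so did Xylt2, which starts the chain (-0.15 ± 0.08). The chain initiator gene Extl3 (0.53 ± 0.07), the 6-O-sulfotransferase gene Hs6st3 (0.39 ± 0.09) and the second xylosyltransferase gene Xylt1 (0.29 ± 0.09, detected on 2 of 4 wild-type arrays) were higher. The call for Xylt1 was lost on the authors' values (0.11). Among linker enzyme genes, B4galt7 (0.44 ± 0.12, detected on 1 of 4 wild-type arrays) and B3gat3 (0.40 ± 0.13) were higher too. B3gat3 was not called without mutant culture 2 (0.23, limma with Benjamini-Hochberg adjusted p = 0.0560). Sulf1, which strips 6-O-sulfate from finished chains, was higher (0.45 ± 0.05) and was lower with both inhibitors, so that it lay 0.74 ± 0.05 above its chlorate level and 0.83 ± 0.05 above its SU5402 level. B3galt6 (-0.43 ± 0.07), another linker enzyme, and Extl2 (-0.33 ± 0.06) were lower. Hs3st1, which makes the antithrombin-binding form of the chain, was detected on 0 of 4 mutant arrays and was at least 1.39-fold lower.

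Genes for the proteins that carry the chains were mostly higher: 7 of 11 rose, 1 fell and 3 were not called (median 0.33). The basement membrane proteoglycan gene Hspg2 (perlecan) read 11.44, 11.46 and 11.51 in mutant and 10.02, 10.28 and 10.18 in wild-type cultures (1.31 ± 0.07). Agrn, a second matrix proteoglycan (0.94 ± 0.06), and the membrane-anchored glypican genes Gpc3 (0.90 ± 0.07), Gpc4 (0.78 ± 0.08) and Gpc2 (0.49 ± 0.11) followed. The transmembrane syndecan gene Sdc1 was lower (-0.42 ± 0.10). Among genes of sulfate activation and of chondroitin sulfate, a second sulfated chain, 3 of 10 were higher and 5 lower (median -0.20). Chst3, which sulfates carbon 6 of chondroitin, was detected on 4 of 4 mutant and 0 of 4 wild-type arrays by both of its probes, which were at least 6.70-fold and at least 6.48-fold higher. Chpf, a chondroitin polymerase, rose by 0.47 ± 0.11. Chst15, which adds a further sulfate to chondroitin, was lower (-0.59 ± 0.12). Chst11, a 4-O-sulfotransferase gene, was detected on 0 of 4 mutant and 3 of 4 wild-type arrays, and its call was lost on the authors' values. Papss1, which makes the sulfate donor for all of these enzymes, differed by -0.12 ± 0.05 and was not called.

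Naive pluripotency genes were mostly higher in mutant cells: 11 of 14 rose, 1 fell and 2 were not called (median 0.71). The inhibitors moved this list the same way. In wild-type cells 12 of the 14 were higher and 1 lower with chlorate (median 0.54), and likewise with SU5402 (median 0.51). Prdm14, a repressor of the primed programme, was detected on 4 of 4 mutant and 0 of 4 wild-type arrays and was at least 2.11-fold higher. Tbx3 read 9.75, 9.85 and 9.83 against 8.27, 8.44 and 8.43 (1.43 ± 0.09), and Esrrb, a nuclear receptor of the naive network, 12.87, 12.88 and 12.83 against 11.75, 11.75 and 11.74 (1.11 ± 0.06). Nanog read 12.43, 12.56 and 12.58 against 11.88, 11.82 and 11.81 (0.68 ± 0.06). The groups lay apart in each. The AKT co-activator gene Tcl1 (1.29 ± 0.07) and Klf4 (0.74 ± 0.08) were higher too, and Zfp42 (0.16 ± 0.07) was not called, although it was without mutant culture 3 (0.20, adjusted p = 0.0370). The exception was Dppa3, a maternal factor that protects DNA from demethylation: it read 5.94, 5.99 and 6.05 in mutant and 8.80, 8.64 and 8.67 in wild-type cultures, 6.54-fold lower (-2.71 ± 0.06; limma with Benjamini-Hochberg, adjusted p = 2.62e-12). With chlorate and SU5402 Dppa3 was higher (1.21 ± 0.06 and 1.12 ± 0.06), and mutant minus inhibitor-treated cells gave -3.92 ± 0.06 and -3.83 ± 0.06.

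The genes shared by naive and primed cells were divided, with 4 of 11 higher and 6 lower (median -0.22). Pou5f1 overlapped between groups (12.82, 12.66 and 12.51 against 12.64, 12.43 and 12.68; 0.08 ± 0.08). Sox2 (0.34 ± 0.09) and the ligand gene Gdf3 (0.41 ± 0.07) were higher. Utf1 (-0.94 ± 0.07) and the Nodal co-receptor gene Tdgf1 (-1.14 ± 0.15) were lower. The RNA-binding protein gene Lin28a was lower by its brighter probe (-0.41 ± 0.10) and differed by 0.01 ± 0.08 on the other, which was not called.

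Primed epiblast genes were lower, 9 of 11 with 1 higher (median -1.06). With chlorate 8 of the 11 were lower and 1 higher, and the same counts held with SU5402 (median -0.70 with either inhibitor). The POU factor gene Pou3f1 read 6.93, 6.97 and 6.95 against 9.39, 9.64 and 9.48, 5.86-fold lower (-2.55 ± 0.08; limma with Benjamini-Hochberg, adjusted p = 3.33e-11). The tight-junction gene Cldn6 read 7.34, 7.39 and 7.35 against 9.94, 9.82 and 9.93 (-2.54 ± 0.06). Neither gene had overlapping cultures. Wnt8a was detected on 0 of 4 mutant arrays and was at least 2.59-fold lower. The 3 probes for the kinase gene Pim2 were lower, and were detected on 0, 1 and 2 of 4 mutant arrays. The last of them gave -0.50 ± 0.11. The Wnt effector gene Lef1 was at least 1.20-fold lower. Otx2, a factor that opens primed enhancers, was the higher member (0.22 ± 0.06, from 9.66, 9.59 and 9.57 against 9.34, 9.38 and 9.44). It was not called on either set of arrays alone. No label gives these sets, which were formed for the alternatives. The first joins culture 1 with 1 array of culture 3, and the second joins culture 2 with the other array. Pou3f1 lay below its level with chlorate (-0.64 ± 0.08) and SU5402 (-0.75 ± 0.08), both of which had lowered it. Cldn6 moved otherwise, at 0.27 ± 0.06 with chlorate and 0.26 ± 0.06 with SU5402, and mutant minus inhibitor-treated cells gave -2.81 ± 0.06 and -2.80 ± 0.06.

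Of 9 tested DNA methylation genes 3 rose and 4 fell. Dnmt3b, which encodes a methyltransferase that lays down new methylation, read 11.40, 11.27 and 11.31 against 13.35, 13.28 and 13.39, 4.03-fold lower (-2.01 ± 0.06; limma with Benjamini-Hochberg, adjusted p = 2.65e-11). Its catalytically inactive partner Dnmt3l read 12.65, 12.50 and 12.56 against 13.76, 13.75 and 13.76 (-1.18 ± 0.05). Both were also below their levels under chlorate and SU5402 (Dnmt3b by -1.31 ± 0.06 and -1.24 ± 0.06). The maintenance methyltransferase gene Dnmt1 (0.39 ± 0.07) and Uhrf1, which guides it to replicated DNA (0.39 ± 0.06), were higher. Dnmt3a was not detected in enough cultures to be tested.

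Germline genes, whose promoters are known to be methylated in somatic cells, were mostly lower. Of 9 tested, 7 were lower and 0 higher (median -1.20, or -1.13 counting undetected genes at the bound). The promoters of the 4 with the largest differences are shown because their CG dinucleotides, in capitals, are the substrate of the Dnmt enzymes. Each is the RefSeq window on GRCm38.p6 from 250 bases before to 50 bases after the gene start, read along the gene's strand: Asz1 at chr6:18109012-18109311 (minus strand), Taf7l at chrX:134476441-134476740 (minus), Tex19.1 at chr11:121145893-121146192 (plus) and Sycp1 at chr3:102936051-102936350 (minus).
Asz1: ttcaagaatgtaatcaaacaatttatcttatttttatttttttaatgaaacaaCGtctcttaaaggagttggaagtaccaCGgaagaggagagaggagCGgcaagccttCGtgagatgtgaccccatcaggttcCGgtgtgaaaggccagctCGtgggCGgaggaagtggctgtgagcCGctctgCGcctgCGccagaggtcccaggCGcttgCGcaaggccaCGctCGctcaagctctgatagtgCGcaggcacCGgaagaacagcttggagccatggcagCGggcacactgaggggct
Taf7l: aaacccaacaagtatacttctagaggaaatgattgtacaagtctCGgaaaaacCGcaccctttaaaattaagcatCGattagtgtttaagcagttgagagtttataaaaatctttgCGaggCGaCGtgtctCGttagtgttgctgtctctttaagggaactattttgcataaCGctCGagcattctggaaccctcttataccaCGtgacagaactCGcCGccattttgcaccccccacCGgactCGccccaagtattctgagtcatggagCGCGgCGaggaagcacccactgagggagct
Tex19.1: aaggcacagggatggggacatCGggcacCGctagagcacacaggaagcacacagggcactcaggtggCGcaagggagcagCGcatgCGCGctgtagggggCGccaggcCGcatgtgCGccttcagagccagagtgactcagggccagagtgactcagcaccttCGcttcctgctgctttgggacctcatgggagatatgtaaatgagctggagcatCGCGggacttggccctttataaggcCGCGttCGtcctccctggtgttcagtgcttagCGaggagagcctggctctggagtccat
Sycp1: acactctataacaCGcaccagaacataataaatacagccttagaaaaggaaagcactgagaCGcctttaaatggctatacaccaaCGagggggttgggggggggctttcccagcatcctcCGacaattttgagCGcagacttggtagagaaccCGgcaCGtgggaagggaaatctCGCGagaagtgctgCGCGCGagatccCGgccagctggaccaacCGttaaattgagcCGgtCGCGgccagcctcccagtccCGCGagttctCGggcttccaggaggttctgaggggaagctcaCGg
They hold 17, 17, 16 and 21 CG dinucleotides in 300 bases. The median was 18.5 over the 8 tested germline genes with a window, 21 over 7414 tested genes and 7 over all 27025 windows, of which 94.2% hold at least 1 CG. The count is a property of the letters, the same on both strands, and methylation itself was not measured.

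Asz1, a piRNA pathway gene of male germ cells, read 5.91, 5.42 and 5.79 in mutant and 7.76, 7.58 and 7.82 in wild-type cultures (-2.01 ± 0.11). Tex19.1, a germline gene that restrains retrotransposons and lies on chromosome 11, read 11.09, 10.94 and 10.92 against 12.75, 12.64 and 12.68 (-1.71 ± 0.06). The cultures of the 2 groups did not overlap for either gene. Taf7l, a germ cell version of a general transcription factor (-1.75 ± 0.12), Stra8, which starts meiosis (-1.20 ± 0.14), and the RNA-binding gene Dazl (-0.70 ± 0.08) were lower. Sycp1, a component of meiotic chromosome cores, was detected on 0 of 4 mutant arrays and was at least 2.19-fold lower. Against chlorate 6 of the 9 were lower and 3 higher, and against SU5402 6 were lower and 1 higher.

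Imprinted genes, which are expressed from 1 parental copy under the control of DNA methylation, were lower nearly throughout: 14 of 15 fell and 1 rose (median -0.93). Phlda2, a brake on placental growth, read 7.57, 7.64 and 7.50 in mutant and 10.65, 10.70 and 10.80 in wild-type cultures, 8.86-fold lower (limma with Benjamini-Hochberg, adjusted p = 1.41e-12). The growth inhibitor gene Cdkn1c, which shares an imprinted cluster of chromosome 7 with Phlda2, read 8.20, 8.10 and 8.25 against 10.50, 10.62 and 10.59 (-2.39 ± 0.06). The growth factor gene Igf2, in the neighbouring cluster, read 6.80, 6.87 and 6.87 against 9.14, 9.10 and 9.06 (-2.26 ± 0.07). All 3 had their groups well apart. Dlk1, a Notch-related growth regulator, and the neuronal gene Nnat were detected on 0 of 4 mutant and 4 of 4 wild-type arrays, each at least 2.47-fold lower. With chlorate 4 imprinted genes were higher and 4 lower, and with SU5402 3 were higher and 5 lower, with Igf2 at 1.16 ± 0.07 and 0.83 ± 0.07. In direct comparison 14 of 15 imprinted genes were lower than with chlorate and 13 lower than with SU5402, with 0 higher in both.

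**Figure D3:**
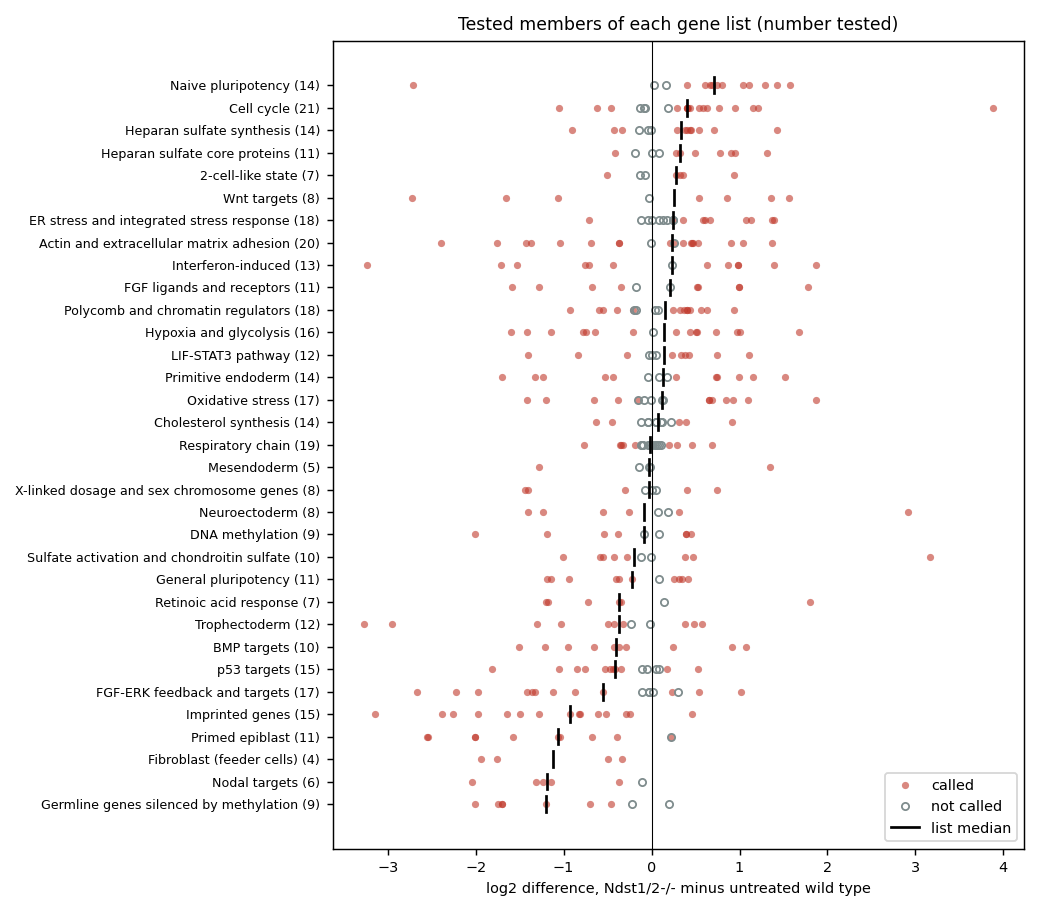
Log2 difference between Ndst1/2-/- and untreated wild-type cells (x axis) for the tested members of 33 gene lists (y axis, number tested in brackets), with called genes filled, genes not called open and a black bar at each list's median. Naive pluripotency genes lie mostly above 0 (median 0.71), and Nodal targets (-1.19), germline genes (-1.20), primed epiblast genes (-1.06) and imprinted genes (-0.93) mostly below.

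Genes of the Nodal and BMP pathways were lower. Of 6 tested Nodal targets 5 were lower and 0 higher (median -1.19). Lefty2, an inhibitor that Nodal induces against itself, read 8.91, 8.82 and 8.71 against 10.94, 10.80 and 10.84 (-2.04 ± 0.07). Lefty1 read 9.31, 9.31 and 9.22 against 10.56, 10.57 and 10.40 (-1.23 ± 0.06), and the SMAD co-repressor gene Skil was also lower (-1.31 ± 0.07). Nodal itself overlapped between groups (8.68, 8.70 and 8.47 against 8.80, 8.80 and 8.58; -0.11 ± 0.08). Both Lefty genes were higher with the inhibitors, and for Lefty2 the mutant differed from chlorate by -2.43 ± 0.07 and from SU5402 by -2.59 ± 0.07. Of 10 BMP targets 7 were lower and 3 higher (median -0.40). The lower genes include 2 at the edge of detection, Msx2 (0 of 4 arrays in both groups) and Dusp9 (0 of 4 mutant and 2 of 4 wild-type arrays). Id1 (8.05, 8.16 and 8.28 against 9.40, 9.33 and 9.39; -1.21 ± 0.08) and Id3 (-0.95 ± 0.07), direct targets that block differentiation, were lower, and Id4 (0.91 ± 0.12) and the inhibitory SMAD gene Smad6 (1.08 ± 0.09) were higher. The ligand gene Bmp4 was lower in all 3 comparisons (-1.51 ± 0.07, and -1.63 ± 0.07 with chlorate and -1.59 ± 0.07 with SU5402), and mutant and inhibitor cells differed by 0.12 ± 0.07 and 0.08 ± 0.07.

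**Figure D4:**
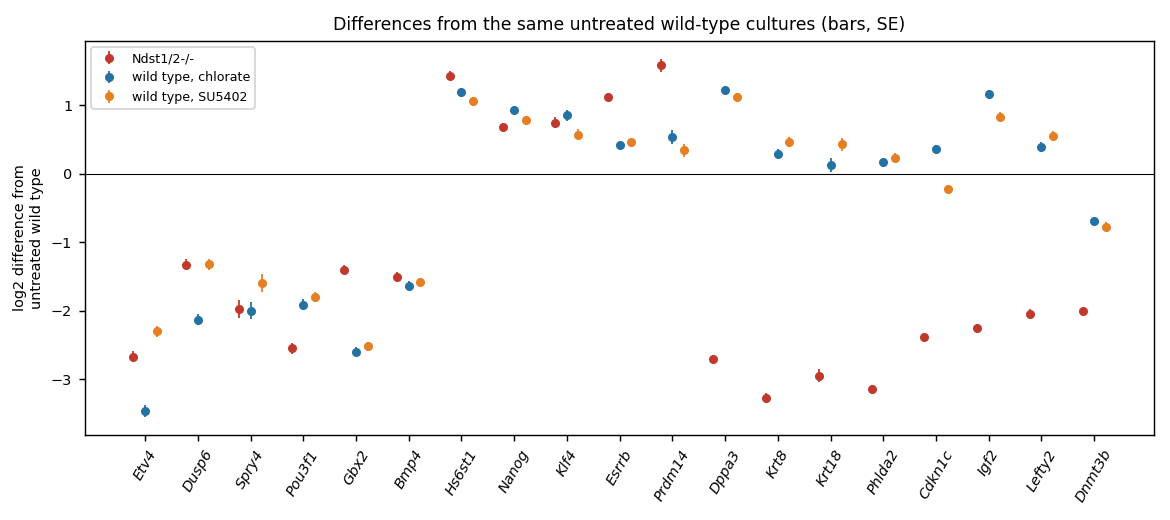
Log2 difference from untreated wild type (y axis; points, estimate; bars, SE; n = 3 cultures per group) for 19 genes, chosen after their values were seen, in Ndst1/2-/- cells (red), chlorate-treated cells (blue) and SU5402-treated cells (orange). The 3 comparisons share the same wild-type cultures. Etv4, Dusp6, Spry4, Pou3f1, Gbx2 and Bmp4 lie below 0 in all 3, while Dppa3 and Igf2 lie below 0 in the mutant (-2.71 and -2.26) and above 0 with either inhibitor. Krt18 was detected on no mutant array and Prdm14 on no untreated array, so these 2 red points are fitted differences and not bounds.

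Wnt targets were divided, with 4 of 8 higher and 3 lower (median 0.25). Sp5, a direct target of beta-catenin, was detected on 0 of 4 mutant and 4 of 4 wild-type arrays and was at least 5.42-fold lower. Axin2, a feedback inhibitor on chromosome 11, read 5.10, 5.81 and 5.47 against 7.19, 6.87 and 7.30 (-1.66 ± 0.15). The feedback inhibitor gene Notum, on the same chromosome, was higher (1.36 ± 0.07), as was the Wnt effector gene Tcf7l2 (1.56 ± 0.11). Sp5, Axin2 and Notum differed by 0.21 or less from untreated cells with either inhibitor. Of 12 genes of the LIF-STAT3 pathway 6 were higher and 3 lower (median 0.14). Socs3, the feedback inhibitor that STAT3 induces, rose slightly (0.34 ± 0.06). Stat3 was lower (-0.28 ± 0.07). Both lie on chromosome 11, whose median was -0.33. Jak2 was lower (-0.84 ± 0.09), and the LIF receptor gene Lifr differed by 0.01 ± 0.10. Gbx2, which lies downstream of both STAT3 and ERK, was lower (10.49, 10.45 and 10.39 against 11.90, 11.85 and 11.80; -1.40 ± 0.07) but stood above its level with chlorate (1.20 ± 0.07) and SU5402 (1.12 ± 0.07).

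Markers of differentiated lineages moved in both directions, with trophectoderm genes mostly lower. Of 12 trophectoderm genes 7 were lower and 3 higher (median -0.37, or -0.28 counting undetected genes at the bound). Beside Krt8, its partner Krt18 was detected on 0 of 4 mutant arrays and was at least 7.33-fold lower, and the lineage factor gene Cdx2 was at least 1.68-fold lower. Gata3 (0.49 ± 0.07) and Tfap2a (0.57 ± 0.08) were higher. Against chlorate 10 of the 12 were lower and 1 higher, and against SU5402 10 were lower and 0 higher. Over a shorter list of 6 trophectoderm markers, 5 were detected on 0 mutant arrays, and their summed intensity was 108 to 127 in mutant and 127 to 142.5 in wild-type cultures.

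Of 14 primitive endoderm genes 6 were higher and 5 lower (median 0.13). The 2 basement membrane genes Lamc1 (11.41, 11.33 and 11.30 against 9.74, 9.82 and 9.92; 1.52 ± 0.07) and Col4a1 (1.15 ± 0.06, on chromosome 8) were higher. The endocytic adaptor gene Dab2 (-1.23 ± 0.08) and Amn (-1.70 ± 0.13, detected on 2 of 4 mutant arrays) were lower, and Gata6, which defines the lineage, was detected on 0 of 4 mutant arrays and was at least 1.78-fold lower. Summed intensity of 7 primitive endoderm markers was 168 to 202 in mutant and 339 to 368 in wild-type cultures, beside at least 62311 for the 8 ES cell markers, so the share of such cells and their RNA content cannot be told apart. Dab2 was the brightest of the 7, at a mean log2 of 6.79 in mutant and 8.02 in wild type, while Sox7 was higher in mutant (0.74 ± 0.09). Of 8 neuroectoderm genes 2 were higher and 4 lower. Sox21, a neural progenitor factor gene, read 10.88, 10.75 and 10.76 against 7.94, 7.93 and 7.79 (2.91 ± 0.06; 1.72 ± 0.06 with chlorate and 1.59 ± 0.06 with SU5402). The neuronal gene Map2 (-1.24 ± 0.15) and Neurod1 (-0.55 ± 0.10) were lower, and Sox1 and Pax6 were detected on 0 arrays in both groups. Of 5 mesendoderm genes 1 was higher (Gsc, an organizer gene, 1.35 ± 0.06) and 1 lower (Fgf8), and Eomes overlapped (-0.02 ± 0.07). Over 3 mesendoderm markers (Gsc, Eomes and Mixl1), summed intensity was 104 to 112 in mutant and 51.1 to 52.5 in wild-type cultures. Gsc alone of them was called, at a mean log2 of 6.60 against 5.25, and Mixl1 was detected on 0 arrays of either group. The sum thus reflects Gsc and not a rise of all 3 markers. Over 4 neuroectoderm markers it was 191 to 196 in mutant and 204 to 233.5 in wild-type cultures.

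All 4 tested members of the feeder list fell (median -1.13). Col1a1, detected on 0 of 4 mutant and 2 of 4 wild-type arrays, was not called on the authors' values (-0.06). Twist1 was not called without wild-type culture 3 (-0.27). Acta2, a smooth-muscle actin and the brightest of them, read 8.96, 8.93 and 8.69 against 10.66, 10.62 and 10.58 (-1.76 ± 0.08). Thy1, a fibroblast surface protein gene detected on 0 of 4 mutant arrays, was at least 2.62-fold lower. Of 8 fibroblast markers 7 were detected on 0 of 4 mutant arrays and 5 on 0 of 4 wild-type arrays, including Col1a2, Col3a1, Postn and Lum in both. Their summed intensity was 83.5 to 96.0 in mutant and 172 to 204 in wild-type cultures. Their part in the other differences was not tested.

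Genes of proliferation were higher and targets of p53 lower. Of 21 cell cycle genes 14 were higher and 3 lower (median 0.41). Beside Plk1, the nucleotide reductase gene Rrm2 read 9.80, 9.74 and 9.88 against 8.65, 8.53 and 8.61 (1.21 ± 0.06), and the cyclin gene Ccnd3 was higher (0.95 ± 0.06). Cdkn2a, which encodes inhibitors of the cycle, was also higher (7.69, 7.65 and 7.67 against 6.53, 6.51 and 6.52; 1.15 ± 0.06). Of 15 p53 targets 9 were lower and 2 higher (median -0.42, or -0.35 counting undetected genes at the bound). The cycle inhibitor gene Cdkn1a read 7.66, 7.47 and 7.33 against 8.57, 8.57 and 8.50 (-1.06 ± 0.08). The death genes Pmaip1 (-1.81 ± 0.07, detected on 3 of 4 mutant arrays) and Bbc3 (-0.75 ± 0.06), the cyclin G gene Ccng1 (on chromosome 11) and Mdm2, which degrades p53 (-0.42 ± 0.06), were lower. Ccng1 gave -0.84 ± 0.07 by the probe counted here and -1.70 ± 0.08 and -1.59 ± 0.06 by the others. Further probes for Bbc3 and for Mdm2 were not called (-0.03 and 0.14 for Bbc3, 0.21 for Mdm2). Cdkn1a was higher with the inhibitors (0.54 ± 0.08 and 0.52 ± 0.08), and the mutant differed from chlorate by -1.60 ± 0.08 and from SU5402 by -1.58 ± 0.08.

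Of 18 genes of the integrated stress response, which raises amino acid synthesis, and of endoplasmic reticulum stress 9 rose, 1 fell and 8 were not called (median 0.24). Atf4, the factor that drives the response, read 8.67, 8.77 and 8.69 in mutant and 7.44, 7.28 and 7.23 in wild-type cultures (1.39 ± 0.12). Shmt2, a mitochondrial serine-folate enzyme, was higher by 1.37 ± 0.06. Herpud1, an endoplasmic reticulum stress gene on chromosome 8, was higher too (1.08 ± 0.05). Ddit4, a stress-induced mTOR inhibitor, was lower (-0.72 ± 0.07). Genes not called included Ddit3 (0.18 ± 0.08), Hspa5 (0.24 ± 0.15), Xbp1 (0.00 ± 0.05) and Dnajb9 (-0.04 ± 0.09). Against chlorate 13 of these genes were higher and 2 lower, and against SU5402 13 were higher and 1 lower.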

How the data were processed

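Deposited bead intensities, not normalized, and their detection p-values came from BeadStudio, per the file headers and the submitters' processing notes. No label or header states how the authors handled background. The authors' own value table, also intensity, served as an alternative: it was linear, with a floor at 20. Intensities were background-corrected by normexp with the detection p-values (offset 16), quantile-normalized and put on a log2 scale (neqc, limma 3.58.1, R 4.3.3). The 2 arrays of culture 3 were then averaged. Probes with a mean detection p under 0.01 in at least 3 of 12 cultures were kept (13377 of 25697, of which 12576 carried a symbol). One linear model over the 12 cultures gave each difference (8 residual degrees of freedom), with Benjamini-Hochberg adjustment within each comparison and calls at an adjusted p under 0.05. It was tested on simulated data. Bulk intensity has no read depth, and the number of arrays limits precision. Symbols came from the platform annotation.

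Named genes were the 15 largest differences each way (1 probe per gene, groups not overlapping, genes with only an identifier as a name skipped), up to 5 called members and fixed anchors of each of 33 lists, all tested heparan sulfate synthesis genes, up to 4 genes of each chromosome that stood apart, and 6 stable bright genes. A few others, such as Spry2, Spred2, Fos, Msx2 and Dusp9, were named after their values were seen. The comparison, its members and its lists were chosen with earlier results of these data known. Alternatives are given in the closing section. The labels' array columns for the mutant read HSPG and were taken as Ndst1/2-/-, the one group left untreated beside wild type.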

Additional observations from a re-analysis of the deposited data

How the results depend on the processing

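Between 6924 and 8837 probes were called over 20 alternatives, against 8381, and 48.1% to 51.7% of calls were higher. With the replicate number as a block 8504 were called, and leaving out 1 culture gave 7789 to 7956. Deviations from the group means correlated weakly between same-numbered mutant and wild-type cultures (r = 0.14, 0.06 and 0.01). Over all groups r ran from -0.01 to 0.19 for same-numbered cultures and from -0.17 to 0.12 for others. What same-numbered cultures share was not tested. With chromosomes 8 and 11 left out, chosen after their shift was seen, 7020 were called. The medians of chromosomes 8 and 11 kept their signs, at 0.24 and -0.24 without background correction, 0.25 and -0.25 with an offset of 50, 0.36 and -0.30 with median scaling, 0.34 and -0.37 with a stricter detection filter, 0.32 and -0.34 with the first array of culture 3, and 0.34 and -0.36 on the authors' values. Chromosome 8 gave 0.34 and 0.33 on either set of arrays alone, and leaving out 1 culture gave 0.32 to 0.33 and -0.34 to -0.32. Both sets hold culture 3, so they are not independent. Of 693 list counts 691 stayed within 1.5 times. The exceptions were cholesterol genes, 8 with the array set as a block and 3 without both chromosomes, against 5. Of 234 named probes 210 had the same call under every alternative. Gata4, detected on 0 of 4 mutant and 1 of 4 wild-type arrays, was not called in the main fit (-0.04 ± 0.16). On the first array set alone it was called higher (0.33, limma with Benjamini-Hochberg adjusted p = 0.0269). Calls for Nes, Srebf2, Ncam1, Kdm5c, Twist1, Rara and B3gat3 were lost, and calls for Ddit3, Cdh1 and Zfp42 gained, when single cultures were left out. Cdh1 and Zfp42 were also called without background correction, with an offset of 50, with median scaling and with a stricter detection filter. The same held with the first array of culture 3, on the authors' values and with a mean-variance trend. Calls for Otx2 were lost on either array set alone (0.22 and 0.16). The call for Xylt1 was lost on the second set and on the authors' values (0.20 and 0.11). Those for Chst11, Lef1 and Col1a1 were lost on the authors' values, and those for B4galt7, Chpf and Sdc1 on the first set. The cause was not tested. Alternatives for Ndst1 and Ndst2 were not run, since no probe for them was analysed here.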

Other observations

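Several gene groups outside the pathways above were also counted between mutant and untreated wild-type cells (limma with Benjamini-Hochberg, as above). The counts stand beside 30.5% higher and 33.8% lower over all genes, and some lists held no more calls than that. Among 16 genes of hypoxia and glycolysis 8 were higher and 7 lower (median 0.14). Ldha, which turns pyruvate into lactate, read 10.73, 10.82 and 10.86 in mutant and 12.39, 12.35 and 12.46 in wild-type cultures (-1.59 ± 0.06). Pdk1, which keeps pyruvate out of mitochondria, was lower (-1.42 ± 0.07), as was the glucose transporter gene Slc2a1 (-0.78 ± 0.05). The hexokinase gene Hk2 (0.97 ± 0.06) and the vessel growth factor gene Vegfa (1.67 ± 0.06) were higher. Of 17 oxidative stress genes 7 were higher and 5 lower. The quinone reductase gene Nqo1 rose by 1.87 ± 0.07 and the metal-binding metallothionein gene Mt1 gave -1.20 ± 0.06, both on chromosome 8.

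Of 13 interferon-induced genes 6 were higher and 6 lower (median 0.23). Ifitm3, which blocks viral entry, read 12.98, 12.98 and 12.82 against 11.04, 11.10 and 11.02 (1.88 ± 0.07), whereas the guanylate-binding gene Gbp3, detected on 0 of 4 mutant arrays, was at least 2.08-fold lower. Of 7 retinoic acid genes 5 were lower and 1 higher (median -0.37), with the binding protein gene Crabp1 at -1.18 ± 0.08 and the homeobox gene Meis1, on chromosome 11, at 1.80 ± 0.15. Of 18 Polycomb and chromatin genes 9 were higher and 5 lower. The PRC1 subunit genes Bmi1 (0.93 ± 0.11) and Phc1 (-0.93 ± 0.05) moved in opposite directions. Of 20 genes of actin, adhesion and matrix 10 were higher and 8 lower, among them the integrin genes Itgb5 (1.37 ± 0.06) and Itga3 (-1.43 ± 0.06, on chromosome 11). In the list of 19 respiratory chain genes 4 were higher and 5 lower, in the list of 14 cholesterol synthesis genes 3 and 2, and in the list of 7 genes of the 2-cell-like state 4 and 1. The respiratory chain and cholesterol lists held a smaller share of called genes than all tested genes.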
